A study of Mus musculus with 15 samples.

Results

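Transcripts of 10 mitotic cell cycle genes were followed in mouse bone marrow-derived macrophages, phagocytes grown from marrow with the cytokine M-CSF. The genes were Cdk1, Ccna2, Ccnb1, Ccnb2, Plk1, Aurka, Bub1, Cdc20, Top2a and Mki67, taken by symbol, and all 10 were found among the 10020 genes of the table of exon values. The cells came from C57BL/6 mice of mixed sex, and neither an allele, a transgene nor an age is named in the labels. The medium held lipid A at 100 ng/ml for 15, 30, 60 or 120 min, or none for unstimulated cells (0 min). Lipid A is the membrane anchor of lipopolysaccharide and the agonist of Toll-like receptor 4. At each time RNA was taken from the cytoplasm, from the nucleoplasm (the soluble part of lysed nuclei) and from the chromatin pellet, which holds RNA still attached to its gene, and each of the 3 fractions and 5 times had 1 library, 15 in all.

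A cell enters mitosis when the kinase encoded by Cdk1 binds a cyclin. Cyclins A2, B1 and B2 are such partners, the kinases Plk1 and Aurora A (Aurka) build the spindle, and Bub1 is a kinase of the checkpoint that waits until every chromosome is attached. Cdc20 then switches on the anaphase-promoting complex, which destroys securin and the B cyclins, topoisomerase II alpha (Top2a) untangles the chromosomes, and Ki-67 (Mki67) coats them. These transcripts accumulate late in the cycle of dividing cells and are low in resting ones. Macrophages kept in M-CSF still divide, and bacterial lipopolysaccharide is known to stop them.

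The libraries held 15.6 M to 19.9 M reads in cytoplasmic, 24.5 M to 31.4 M in nucleoplasmic and 38.8 M to 52.3 M in chromatin RNA. Exons of the listed genes took 28.0% of the cytoplasmic reads at 0 min, 44.1% at 60 min and 29.2% at 120 min, 54.4% to 60.7% of nucleoplasmic reads and 20.5% to 27.1% of chromatin reads. All 11 macrophage markers were listed, with a summed level of 1352 to 2815 RPKM (reads relative to exon length and to the size of the library) in cytoplasmic, 8717 to 11931 RPKM in nucleoplasmic and 1294 to 1965 RPKM in chromatin RNA. Of the granulocyte and monocyte progenitor markers, 5 of 9 were listed, at a summed 2.19 to 3.80 RPKM in cytoplasmic, 6.10 to 8.54 RPKM in nucleoplasmic and 1.19 to 2.11 RPKM in chromatin RNA. Neutrophil markers were listed for 6 of 10 genes, summing to 35.6 to 75.0 RPKM in cytoplasmic, 70.4 to 82.1 RPKM in nucleoplasmic and 13.0 to 26.1 RPKM in chromatin RNA. The table listed 0 of 6 erythroid, 1 of 6 stromal, 2 of 6 T cell and 1 of 5 B cell markers, the B cell gene being Cd79b at 0.570 to 10.5 RPKM over the libraries. The part of other cells in the results was not tested. The response to lipid A was present, since Tnf, a cytokine induced through Toll-like receptor 4, stood at 1087 RPKM in nucleoplasmic RNA at 120 min, against 14.9 RPKM at 0 min.

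Most of the promoters at hand for these genes hold a pair of short motifs that the choice of genes did not use. Promoter windows (250 bases before to 50 bases after the start, RefSeq, build GRCm38.p6) were given for 9 of the 10 genes. The letters TTTGAA, on either strand, stood in 7 of the 9 windows and in 17.9% of 32851 mouse promoters of the same length. This is the core of the cell cycle genes homology region, where repressor and activator complexes are known to bind. The letters CCAAT, the site known for the factor NF-Y, stood in 9 of 9 windows and in 37.4% of all promoters. Both motifs were found in 7 of 9 windows and in 6.95% of all promoters. Of other mitotic genes 29 of 52 held both in at least 1 promoter, a count of genes and not of single promoters. Neither motif contains the other. The E2F motifs searched (TTTCCCGC or TTTGGCGC) and the TATA box (TATAAA) stood in 0 of the 9 windows and in 1.56% and 13.6% of all promoters. Only these exact letters were searched, and variants of them were not. The windows of Cdc20, Cdk1 and Ccnb2 hold both motifs, and that of Bub1 holds CCAAT but not the letters TTTGAA. These windows are shown in the direction of the gene, with both motifs in capitals on whichever strand they lie.
Cdc20, chr4:118437294-118437593, minus strand: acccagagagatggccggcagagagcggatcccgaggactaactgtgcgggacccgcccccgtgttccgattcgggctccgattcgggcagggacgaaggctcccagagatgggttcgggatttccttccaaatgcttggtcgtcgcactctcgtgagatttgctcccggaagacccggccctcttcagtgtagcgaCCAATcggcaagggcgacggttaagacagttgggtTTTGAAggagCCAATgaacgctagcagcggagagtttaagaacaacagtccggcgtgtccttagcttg
Cdk1, chr10:69352863-69353162, minus strand: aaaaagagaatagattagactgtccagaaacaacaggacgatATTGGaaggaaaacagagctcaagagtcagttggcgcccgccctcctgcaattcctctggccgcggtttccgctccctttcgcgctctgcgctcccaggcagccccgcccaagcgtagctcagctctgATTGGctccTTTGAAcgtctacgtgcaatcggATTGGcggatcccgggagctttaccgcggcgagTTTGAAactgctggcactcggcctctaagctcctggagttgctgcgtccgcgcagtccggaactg
Ccnb2, chr9:70421505-70421804, minus strand: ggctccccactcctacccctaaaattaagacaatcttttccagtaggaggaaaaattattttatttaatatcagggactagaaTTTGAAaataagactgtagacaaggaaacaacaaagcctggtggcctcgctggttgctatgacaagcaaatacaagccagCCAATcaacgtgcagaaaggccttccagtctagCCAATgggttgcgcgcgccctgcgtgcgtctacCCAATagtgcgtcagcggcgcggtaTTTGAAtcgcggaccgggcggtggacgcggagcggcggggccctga
Bub1, chr2:127831810-127832109, minus strand: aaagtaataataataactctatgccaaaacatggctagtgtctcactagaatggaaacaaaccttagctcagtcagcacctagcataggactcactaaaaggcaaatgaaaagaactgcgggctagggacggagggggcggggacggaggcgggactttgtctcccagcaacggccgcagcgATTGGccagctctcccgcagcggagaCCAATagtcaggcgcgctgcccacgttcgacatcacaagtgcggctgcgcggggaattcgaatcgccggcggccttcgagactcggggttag
In the Cdc20 window TTTGAA began 18 bases before the start, between CCAAT boxes that began 53 and 8 bases before it. In the Cdk1 window 2 TTTGAA motifs began 71 and 15 bases before the start, and in the Bub1 window the CCAAT boxes began 68 bases before it (reverse strand) and 42 bases before it. A match of letters is a description of the window and not a measured site of binding.

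Among themselves the genes differed widely in level, in the same broad order in every fraction. Mki67 had the highest mean over the 5 times in each fraction, at 54.5 ± 23.3 RPKM in cytoplasmic, 133 ± 35.1 RPKM in nucleoplasmic and 44.4 ± 10.3 RPKM in chromatin RNA (SD over 5 times, which are not replicates). Top2a averaged 29.5 ± 9.57 RPKM in cytoplasmic, 39.6 ± 8.06 RPKM in nucleoplasmic and 10.8 ± 3.11 RPKM in chromatin RNA. Ccna2 averaged 44.6 ± 16.3 RPKM in cytoplasmic, 23.6 ± 8.19 RPKM in nucleoplasmic and 4.79 ± 1.73 RPKM in chromatin RNA, and was thereby above Top2a in the cytoplasm and below it in both nuclear fractions. Ccnb2 followed at 18.8 ± 8.35 RPKM in cytoplasmic, 15.7 ± 3.41 RPKM in nucleoplasmic and 3.33 ± 1.22 RPKM in chromatin RNA. Aurka, Cdk1, Cdc20, Plk1 and Bub1 lay close together, with means of 5.70 to 9.13 RPKM in cytoplasmic, 4.90 to 7.41 RPKM in nucleoplasmic and 1.22 to 2.76 RPKM in chromatin RNA. Neighbours within this group overlapped in their ranges over the 5 times in each fraction. Compared time by time, Aurka was above Cdk1 and Cdk1 above Cdc20 at 5 of 5 times in chromatin RNA, and every other pair of neighbours in the group kept its order at 3 or 4 of 5 times. Ccnb1 was last in every fraction, at 1.08 ± 0.604 RPKM in cytoplasmic, 0.917 ± 0.289 RPKM in nucleoplasmic and 0.548 ± 0.243 RPKM in chromatin RNA. For scale, the median gene of the table averaged 4.43 RPKM in cytoplasmic, 4.52 RPKM in nucleoplasmic and 2.38 RPKM in chromatin RNA. Part of the sequence of 3 genes recurs elsewhere: of the 36-base stretches of the reference transcript, 45.8% for Ccnb1, 21.4% for Cdc20 and 12.5% for Plk1 also occur in other genes, mostly pseudogenes, and how such reads were counted is not stated, so the levels of these 3 genes are uncertain. The exons of Ccna2 overlap those of Exosc9 on the other strand over 510 bases, and whether counting used the strand is not stated either.

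**Figure D1:**
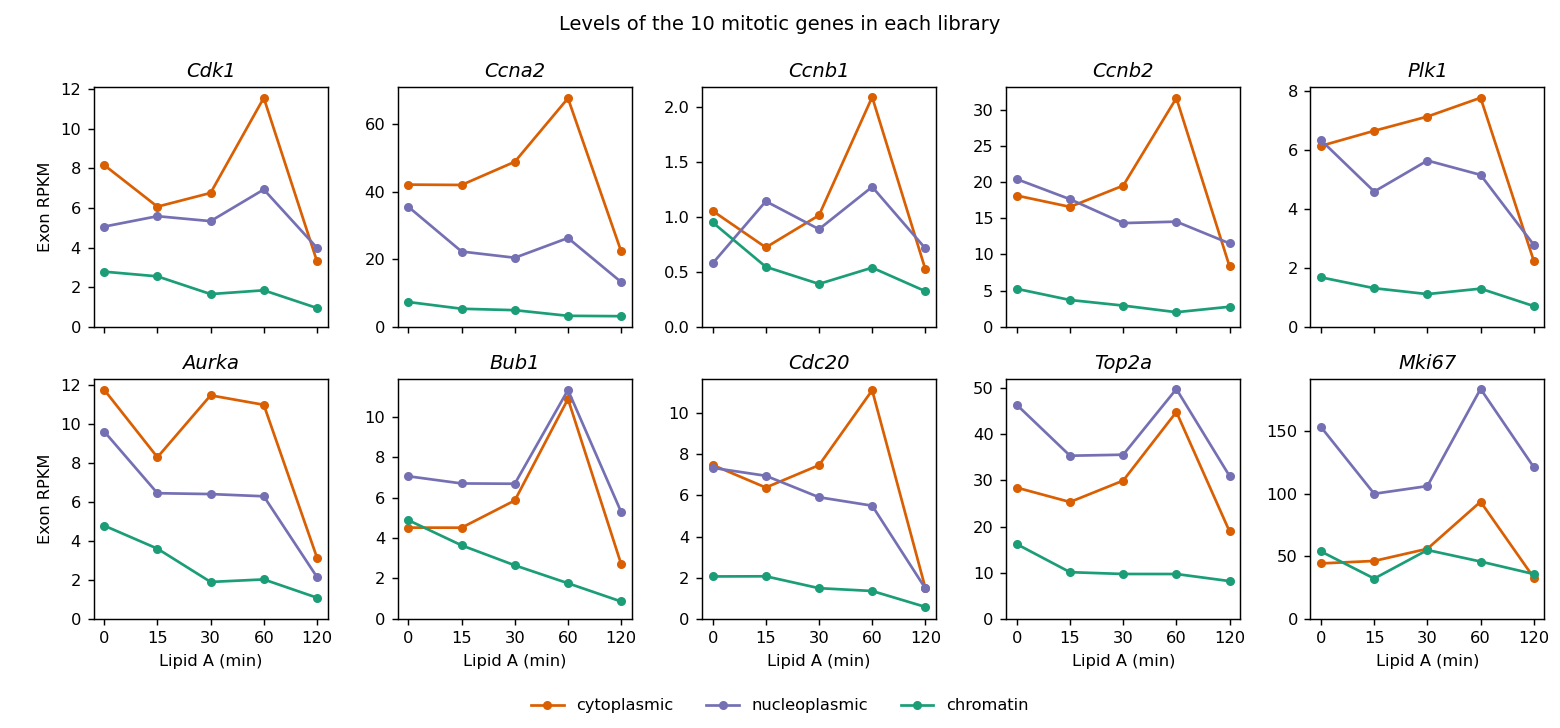
Exon RPKM of each of the 10 genes (own vertical axis from 0) against minutes of lipid A (0, 15, 30, 60 and 120, equally spaced), 1 point per library, in cytoplasmic, nucleoplasmic and chromatin RNA. The cytoplasmic values of 9 genes peak at 60 min, Aurka being the exception, and those of all 10 are lowest at 120 min.

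In cytoplasmic RNA the question was how the amount of mature mitotic transcripts changed with lipid A. It was highest at 60 min for 9 of the 10 genes and lowest at 120 min for all 10. Cdk1 stood at 8.17, 6.07, 6.76, 11.6 and 3.31 RPKM at 0, 15, 30, 60 and 120 min. Ccna2, the cyclin of S phase and mitotic entry, stood at 42.1, 42.0, 48.9, 67.7 and 22.3 RPKM at the same times, and Ccnb2 at 18.1, 16.6, 19.5, 31.6 and 8.33 RPKM. All 3 passed above their 0 min level at 60 min and below it at 120 min. Plk1 had 6.15, 6.66, 7.14, 7.78 and 2.24 RPKM, a shallower peak than theirs. Aurka had 11.8, 8.29, 11.5, 11.0 and 3.15 RPKM and was not above its 0 min level at any stimulated time. Bub1 had 4.52, 4.51, 5.86, 10.9 and 2.71 RPKM, the steepest peak of the 10 genes as a ratio to 0 min. Cdc20 had 7.48, 6.38, 7.47, 11.1 and 1.50 RPKM and ended lowest relative to 0 min. Top2a had 28.4, 25.3, 30.0, 44.9 and 18.9 RPKM and Mki67 44.2, 46.2, 55.9, 93.5 and 32.9 RPKM. Ccnb1 rested on 24 to 88 reads and stood at 1.05, 0.721, 1.01, 2.09 and 0.522 RPKM.

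With 1 library per time there was no test between times. The change was the log2 ratio of RPKM + 0.5 to RPKM + 0.5 at 0 min, so that changes of low genes are understated, and intervals on plain ratios of RPKM cover counting error only. At 60 min Bub1 was at a ratio of 2.41 to 0 min (95% counting interval 2.11 to 2.76) and Mki67 at 2.11 (2.06 to 2.17), and these were the 2 of 10 genes higher by 2-fold or more at any time, against 13.3% of the 9239 genes that passed 1 RPKM in cytoplasmic RNA. At 120 min Cdc20 was at a ratio of 0.200 (0.145 to 0.272) and Aurka at 0.268 (0.215 to 0.330). Lower by 2-fold or more were 5 of 10 genes, namely Cdc20 (log2 ratio -2.00), Aurka (-1.75), Plk1 (-1.28), Cdk1 (-1.19) and Ccnb2 (-1.08), against 18.7% of all genes tested. At 4-fold 0 of 10 were lower, against 1.88% of all genes tested, with Cdc20 just short of that size on the scale with the pseudocount. The median of the 10 genes was 0.66 at 60 min and -0.99 at 120 min on the log2 scale, beside 0.39 and -0.49 over all genes tested. The median of all genes moved the same way at these times, and 63.4% of all genes tested were highest at 60 min and 71.8% lowest at 120 min, beside 9 and 10 of the 10 mitotic genes. Rescaled, that is with the median of all genes tested subtracted, the medians were 0.27 at 60 min and -0.50 at 120 min. On that scale 2 of 10 genes (Cdc20 and Aurka) were lower by 2-fold, against 695 of all 9239 genes tested. Higher by 2-fold were 0 of 10, against 1280 of all genes tested. The lower calls all rest on the 120 min library, and without it 0 of 10 genes were lower by 2-fold. In whole populations of cells, fewer dividing cells and less of a transcript per cell cannot be told apart.

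In nucleoplasmic RNA the genes separated into those that passed above their 0 min level at 60 min and those that did not. Bub1 stood at 7.06, 6.70, 6.69, 11.3 and 5.29 RPKM at 0, 15, 30, 60 and 120 min, with a ratio of 1.61 at 60 min (95% counting interval 1.47 to 1.76). Cdk1 stood at 5.06, 5.59, 5.34, 6.94 and 3.99 RPKM, with a ratio of 1.37 (1.19 to 1.57) at 60 min. Top2a had 46.4, 35.4, 35.6, 49.8 and 31.0 RPKM, and Mki67 had 153, 99.8, 106, 184 and 121 RPKM. Mki67, Top2a, Cdk1, Bub1 and the weak Ccnb1 (0.576, 1.14, 0.887, 1.27 and 0.712 RPKM, 34 to 83 reads) were thus highest at 60 min, where 12.4% of all genes tested in this fraction were highest. The other 5 were highest at 0 min, as were 41.5% of all genes tested. Ccna2 stood at 35.5, 22.3, 20.4, 26.3 and 13.2 RPKM, Ccnb2 at 20.4, 17.6, 14.3, 14.5 and 11.5 RPKM and Plk1 at 6.34, 4.59, 5.65, 5.16 and 2.78 RPKM. In RPKM, Plk1, Aurka and Cdc20 had their largest step between 60 and 120 min. Aurka had 9.62, 6.45, 6.40, 6.29 and 2.15 RPKM, and Cdc20 7.34, 6.96, 5.91, 5.50 and 1.48 RPKM. At 120 min the ratio to 0 min was 0.201 for Cdc20 (0.156 to 0.258), 0.223 for Aurka (0.182 to 0.273), 0.373 for Ccna2 (0.347 to 0.400) and 0.439 for Plk1 (0.366 to 0.526).

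These were the 4 of 10 genes lower by 2-fold or more, against 22.5% of the 9317 genes tested in nucleoplasmic RNA, and their log2 ratios were -1.99, -1.93, -1.39 and -1.06. At 4-fold 0 of 10 were lower, against 2.81% of all genes tested, and 0 of 10 were higher by 2-fold, against 10.4%. The median at 120 min was -0.69 beside -0.47 over all genes tested. Rescaled, it was -0.21, and 2 of 10 genes (Cdc20 and Aurka) remained lower by 2-fold, against 886 of all 9317 genes tested. Without the 120 min library 0 of 10 genes were lower by 2-fold.

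**Figure D2:**
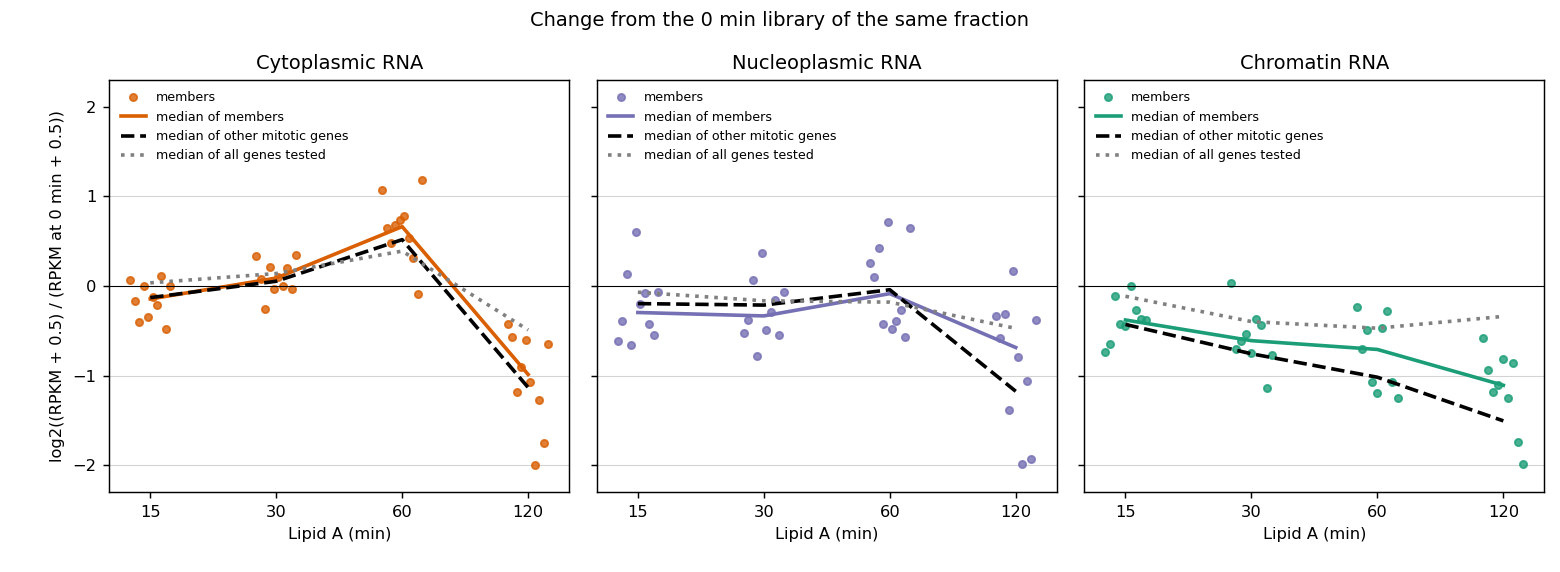
log2((RPKM + 0.5) / (RPKM at 0 min + 0.5)) at each stimulated time in cytoplasmic, nucleoplasmic and chromatin RNA, with 1 point per gene (9 in chromatin RNA) and lines for the median of these genes, of other mitotic genes and of all genes tested. At 120 min the median of the mitotic genes is -0.99, -0.69 and -1.11 in the 3 panels from left to right, beside -0.49, -0.47 and -0.34 over all genes tested.

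Chromatin RNA, the fraction closest to transcription itself, showed no peak at 60 min. Bub1 stood at 4.88, 3.64, 2.65, 1.76 and 0.857 RPKM at 0, 15, 30, 60 and 120 min, lower at each time than at the time before, and its ratio to 0 min was 0.176 at 120 min (95% counting interval 0.146 to 0.209). Aurka stood at 4.78, 3.60, 1.89, 2.02 and 1.08 RPKM, and its ratio at 120 min was 0.226 (0.176 to 0.288). Cdc20 had 2.06, 2.07, 1.49, 1.35 and 0.578 RPKM and Cdk1 2.78, 2.55, 1.65, 1.84 and 0.947 RPKM. Both ended under their 0 min level, at ratios of 0.281 (0.194 to 0.398) for Cdc20 and 0.340 (0.271 to 0.424) for Cdk1. Ccna2 had 7.33, 5.33, 4.91, 3.24 and 3.13 RPKM, most of its loss lying before 60 min. Ccnb2 had 5.24, 3.70, 2.92, 2.01 and 2.76 RPKM, the only gene of the 10 whose level at 120 min was above that at 60 min. Plk1 had 1.68, 1.31, 1.11, 1.29 and 0.702 RPKM. Top2a had 16.2, 10.1, 9.72, 9.71 and 8.18 RPKM, with its largest step in the first 15 min. Mki67 did not follow the others, with 53.7, 32.1, 54.9, 45.7 and 35.7 RPKM: its ratio to 0 min was 0.598 (0.586 to 0.609) at 15 min and 1.02 (1.00 to 1.04) at 30 min. Ccnb1, at 0.948, 0.545, 0.389, 0.537 and 0.323 RPKM on 29 to 101 reads, stayed under 1 RPKM and was not tested in this fraction.

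Of the 9 genes tested in chromatin RNA, 6 were lower by 2-fold or more at some time, against 33.5% of the 8881 genes tested. They were Bub1 (log2 ratio -1.99 at 120 min), Aurka (-1.74), Cdc20 (-1.25), Cdk1 (-1.18) and Ccna2 (-1.11), and Ccnb2 at 60 min (-1.19). At 4-fold 0 of 9 were lower, against 3.91%, and 0 of 9 were higher by 2-fold, against 15.9%. The median of the 9 genes was -0.38, -0.61, -0.71 and -1.11 at 15, 30, 60 and 120 min, beside -0.11, -0.40, -0.47 and -0.34 over all genes tested. Rescaled, it was -0.26, -0.21, -0.24 and -0.77. On that scale 2 of 9 genes (Bub1 at -1.65 and Aurka at -1.40) were lower by 2-fold, against 1409 of all 8881 genes tested. Without the 120 min library 4 of 9 genes were lower by 2-fold. In this fraction 8 of the 10 genes were highest at 0 min, as were 42.7% of all genes tested, and 8 were lowest at 120 min, as were 27.4%.

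Before rescaling, the step between the last pair of times, described after the values had been seen, was steeper in the cytoplasm than in the nuclear fractions for each of the 10 genes as a ratio of RPKM, although the intervals overlapped for Aurka in nucleoplasmic RNA and for Ccnb1 in both nuclear fractions. With the median of all genes subtracted from the log2 ratios this no longer held for 3 genes: Top2a was at -0.36 in cytoplasmic, -0.41 in nucleoplasmic and -0.36 in chromatin RNA, Aurka at -0.79, -1.09 and -0.80 in the same order, and Cdk1 at -0.80 in cytoplasmic and -0.82 in chromatin RNA. Cytoplasmic Cdc20 stood at 1.50 RPKM at 120 min, against 11.1 RPKM at 60 min, a ratio of 0.135 (95% counting interval 0.0989 to 0.180). Its ratio over the same hour was 0.269 (0.206 to 0.348) in nucleoplasmic and 0.427 (0.288 to 0.623) in chromatin RNA. Bub1 had a ratio of 0.249 (0.214 to 0.288) in cytoplasmic, 0.467 (0.424 to 0.513) in nucleoplasmic and 0.487 (0.397 to 0.595) in chromatin RNA. Cytoplasmic Ccnb2 had a ratio of 0.264 (0.229 to 0.304) while its chromatin RNA was at 1.37 (1.08 to 1.75). Top2a had the cytoplasmic ratio nearest to 1, at 0.422 (0.400 to 0.446). All 10 genes were lower by 2-fold or more over this step in cytoplasmic RNA on the scale with the pseudocount, against 39.0% of the 9239 genes tested. Their median was -1.63, beside -0.87 over all genes tested. Rescaled, the median was -0.76 and 1 of 10, Cdc20, remained lower by 2-fold. A share of all genes on the rescaled scale is not given for this step, so this count has no background beside it. The share of cytoplasmic reads in listed exons moved over the same step, to 29.2% at 120 min, against 44.1% at 60 min, and its part in the step was not tested beyond this rescaling.

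**Figure D3:**
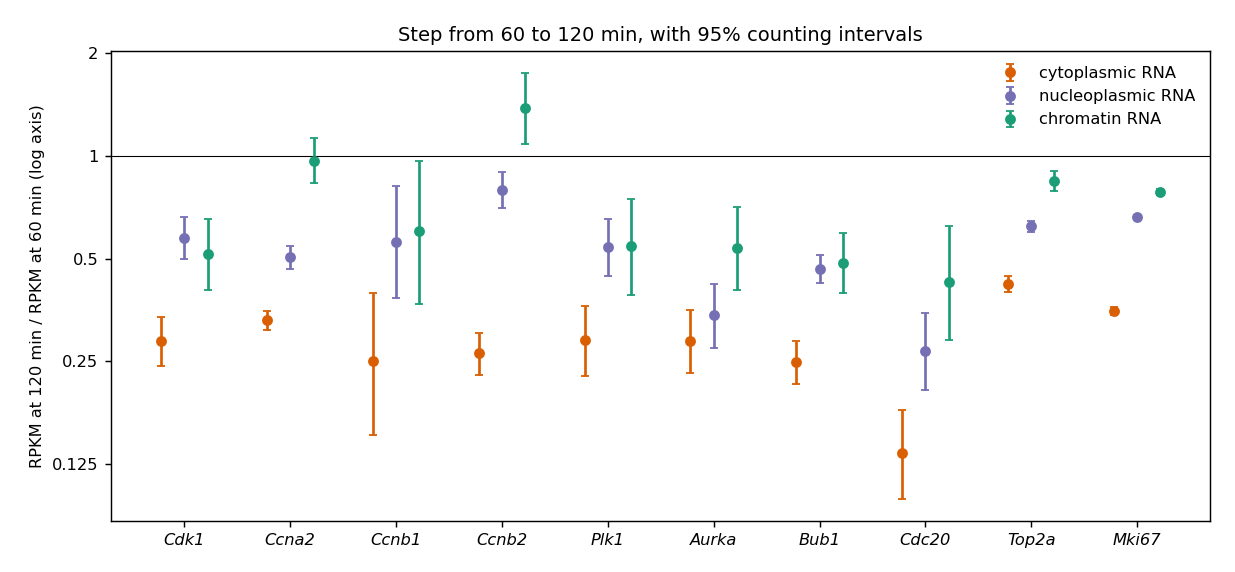
Ratio of RPKM at 120 min to RPKM at 60 min (log axis) for each gene in cytoplasmic, nucleoplasmic and chromatin RNA, with 95% counting intervals. The cytoplasmic ratios lie between 0.135 for Cdc20 and 0.422 for Top2a, and in chromatin RNA Ccnb2 alone lies above 1.

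Between fractions, the comparison asked where these transcripts were held over the whole time course. Differences of log2(RPKM + 0.5) were tested with limma over all 9441 genes that reached 1 RPKM in at least 3 libraries, with the 5 times as the values of a fraction and Benjamini-Hochberg adjusted p-values. RPKM is relative to all reads of a library, so a ratio between fractions is not a ratio of molecules per cell. Ccna2 was the most cytoplasmic of the 10 genes, at 44.6 ± 16.3 RPKM in cytoplasmic and 4.79 ± 1.73 RPKM in chromatin RNA (SD, 5 times each), a difference of 3.07 ± 0.21 (SE, adjusted p = 6.7e-12 by limma) on the log2 scale, higher at 5 of 5 times. Ccnb2 differed by 2.28 ± 0.23 (adjusted p = 4.1e-09 by limma) and Plk1 by 1.85 ± 0.19 (adjusted p = 4.7e-09 by limma), each higher at 5 of 5 times. Cdc20 differed by 1.72 ± 0.21, Cdk1 and Aurka by 1.61 ± 0.20 each and Top2a by 1.39 ± 0.19. These 7 of 10 genes passed adjusted p under 0.05 and 2-fold, against 40.7% of all genes tested, and 0 of 10 were lower, against 5.14%. Mki67 did not differ by this rule, at 54.5 RPKM in cytoplasmic and 44.4 RPKM in chromatin RNA (0.23 ± 0.21, adjusted p = 0.31 by limma), and its sign turned with each library rescaled to the same median (-0.57). Bub1, at 0.95 ± 0.25 (adjusted p = 0.0016 by limma), and Ccnb1, at 0.54 ± 0.20 (adjusted p = 0.015 by limma), passed the test but not 2-fold.

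The difference between cytoplasmic and chromatin RNA was not constant in time. For Bub1 the cytoplasmic RPKM was 0.925, 1.24, 2.21, 6.18 and 3.16 times the chromatin RPKM at 0, 15, 30, 60 and 120 min. For Ccnb2 it was 3.46, 4.48, 6.66, 15.7 and 3.02 times, and for Ccna2 5.75, 7.88, 9.95, 20.9 and 7.14 times. These ratios were highest at 60 min for all 3 genes. The medians of all genes tested also moved apart at 60 min, to log2 ratios to 0 min of 0.39 in cytoplasmic and -0.47 in chromatin RNA. The part of this general shift in the ratios was not tested. Aurka and Plk1 had theirs at 30 min, at 6.06 and 6.44 times.

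Nucleoplasmic RNA was higher than chromatin RNA for 9 of 10 genes by the same rule, against 44.1% of all genes tested, and lower for 0 of 10, against 2.28%. Ccna2 differed by 2.18 ± 0.21, Ccnb2 by 2.11 ± 0.23, Top2a by 1.85 ± 0.19 (adjusted p = 4.9e-09 by limma) and Mki67 by 1.56 ± 0.21 (adjusted p = 3.1e-07 by limma). Ccnb1 was the exception at 0.44 ± 0.20 (adjusted p = 0.045 by limma). With each library rescaled to the same median the counts of higher genes were 3 of 10 for cytoplasmic over chromatin RNA (Ccna2, Ccnb2 and Plk1) and 2 of 10 for nucleoplasmic over chromatin RNA (Ccna2 and Ccnb2). The shares of all genes given for these contrasts belong to the fit before rescaling, so the rescaled counts have no background beside them. The median difference of all genes tested was 0.76 for cytoplasmic and 0.88 for nucleoplasmic over chromatin RNA.

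Cytoplasmic and nucleoplasmic RNA differed for 1 of 10 genes. Mki67 was lower in the cytoplasm at 5 of 5 times, at 54.5 ± 23.3 RPKM in cytoplasmic and 133 ± 35.1 RPKM in nucleoplasmic RNA (SD, 5 times each), a difference of -1.33 ± 0.21 (SE, adjusted p = 7.5e-06 by limma). Of all genes tested, 16.6% were lower by this rule and 4.66% higher. Mki67 has by far the longest exon length of the 10 genes, 10075 bases, and of 273 tested genes of like length (0.8 to 1.25 times) 15.0% had a lower difference, with a median of -0.39. Ccna2 was higher in the cytoplasm at 5 of 5 times by 0.89 ± 0.21 (adjusted p = 0.00099 by limma), short of 2-fold (1.05 without the 0 min libraries, which passed), and 94.7% of 2650 genes of like length had a lower difference. The other 8 genes lay between -0.45 for Top2a and 0.53 for Aurka. The macrophage markers lay far lower on this contrast, at a median of -2.47.

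**Figure D4:**
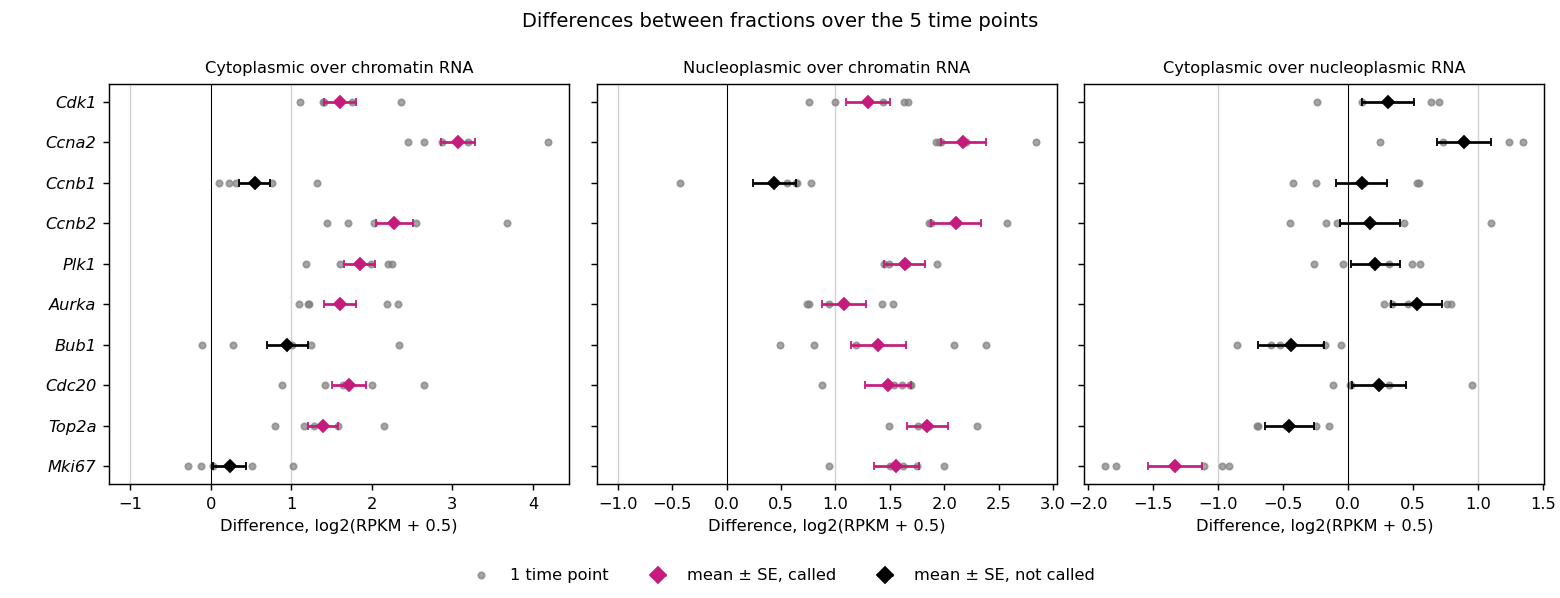
Difference of log2(RPKM + 0.5) between fractions for each gene, as the mean over 5 times with its SE from limma (diamonds, coloured where adjusted p was under 0.05 and the difference at least 2-fold) and at each time (grey points). Mki67 is the gene on the left in the panel of cytoplasmic over nucleoplasmic RNA, at -1.33.

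Other mitotic genes were lower as well, among the 63 of a list of 65 that were in the table. In chromatin RNA 12 of 61 tested were lower by 4-fold or more and 49 lower by 2-fold, against 3.91% and 33.5% of all genes tested, and their median at 120 min was -1.51, beside -0.34 over all genes tested. In nucleoplasmic RNA 10 of 62 were lower by 4-fold and 38 by 2-fold, against 2.81% and 22.5%, with a median of -1.18 beside -0.47. In cytoplasmic RNA 9 of 63 were lower by 4-fold and 34 by 2-fold, against 1.88% and 18.7%, with a median of -1.13 beside -0.49. The genes lower by 4-fold numbered 15 over the 3 fractions, and 7 were so in every fraction: Ccnf, Cdc25b, Cdca2, Fam64a, Fbxo5, Kif20b and Kif23. Rescaled, 3, 3 and 7 genes of the list were lower by 4-fold in cytoplasmic, nucleoplasmic and chromatin RNA. Of all genes tested 70 of 9239, 109 of 9317 and 161 of 8881 were so on that scale, in the same order. Without the 120 min library 0 genes of the list were lower by 4-fold in any fraction.

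Kif23, a kinesin of the central spindle in cytokinesis, stood at 11.8, 8.55, 5.79, 4.19 and 0.919 RPKM in chromatin RNA at 0, 15, 30, 60 and 120 min (log2 ratio -3.12 at 120 min). Its cytoplasmic level over the same times was 15.4, 15.2, 17.8, 24.3 and 2.54 RPKM, again with a peak at 60 min. Ccnf, cyclin F, an F-box protein, stood at 6.79, 5.56, 5.74, 5.12 and 0.406 RPKM in cytoplasmic RNA and at 9.90, 8.53, 7.99, 5.94 and 0.638 RPKM in nucleoplasmic RNA. Cdca2, which recruits a phosphatase to chromosomes at mitotic exit, and Kif20b, a kinesin of cytokinesis, both had a log2 ratio of -2.65 at 120 min in chromatin RNA. Kif2c, a kinesin that takes microtubules apart, had a cytoplasmic level of 0.836 RPKM at 120 min, against 5.85 RPKM at 0 min. That of Fbxo5, an inhibitor of the anaphase-promoting complex, was 0.195 RPKM, against 3.45 RPKM. Pttg1, the securin that Cdc20 marks for destruction, was higher: it stood at 2.79, 2.93, 1.95, 2.97 and 13.7 RPKM in chromatin RNA, the 1 gene of the list higher by 4-fold there, against 6.51% of all genes tested. Its cytoplasmic level was 17.7 RPKM at 120 min, against 6.30 RPKM at 0 min, and its nucleoplasmic level 15.6 RPKM, against 5.13 RPKM. Kif4, a chromosome-bound kinesin, was next at 120 min in chromatin RNA, at 5.30 RPKM, against 3.42 RPKM at 0 min.

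Lists for other phases of the cycle held genes that were lower and some that were higher. Of the DNA replication genes 13 of 32 were lower by 2-fold or more in chromatin RNA, 11 of 35 in nucleoplasmic and 10 of 37 in cytoplasmic RNA, against 33.5%, 22.5% and 18.7% of all genes tested in the same order. Tk1, thymidine kinase, stood at 0.207 RPKM in chromatin RNA at 120 min, against 2.41 RPKM at 0 min, and Cdt1, which licenses replication origins, at 0.920 RPKM in cytoplasmic RNA, against 8.52 RPKM. Rfc3, a subunit of the clamp loader, was at 5.77 RPKM in chromatin RNA at 120 min, against 2.92 RPKM. Among G1 cyclins and kinases 9 of 11 were lower by 2-fold or more in chromatin RNA, against 33.5% of all genes tested. In nucleoplasmic RNA 3 of 12 were and in cytoplasmic RNA 3 of 11, against 22.5% and 18.7%. Ccnd2 (cyclin D2) was at 33.6 RPKM in cytoplasmic, 22.5 RPKM in nucleoplasmic and 12.7 RPKM in chromatin RNA at 120 min. At 0 min it was at 2.80, 1.83 and 0.509 RPKM in the same order. Cdk2, the partner of cyclins E and A, was at 1.36 RPKM in chromatin RNA at 120 min, against 8.86 RPKM at 0 min, and Rb1, the retinoblastoma protein, at 1.95 RPKM, against 11.8 RPKM. Ccnd2 was the 1 gene of this list higher by 4-fold in each fraction. Of all genes tested 4.48% were so in cytoplasmic, 4.84% in nucleoplasmic and 6.51% in chromatin RNA.

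CDK inhibitors and other brakes on the cycle held genes of both directions. Lower by 2-fold or more were 5 of 19 in cytoplasmic, 7 of 18 in nucleoplasmic and 8 of 17 in chromatin RNA. Of all genes tested 18.7%, 22.5% and 33.5% were so, in the same order. Higher by 2-fold or more were 7, 5 and 7 of them, against 13.3%, 10.4% and 15.9%. Cdkn1a, the CDK inhibitor p21, stood at 46.7, 56.4, 199, 410 and 559 RPKM in cytoplasmic RNA at 0, 15, 30, 60 and 120 min. Gadd45b, a stress-induced gene, stood at 3.65, 19.1, 68.6, 109 and 64.4 RPKM, and Mdm2, the ligase for p53, at 18.0, 22.8, 48.8, 196 and 27.5 RPKM. Btg2, an antiproliferative gene, was highest at 30 min, at 3.81, 36.4, 102, 22.5 and 2.37 RPKM. These 4 were the genes of the list higher by 4-fold in each fraction, of 19 tested in cytoplasmic, 18 in nucleoplasmic and 17 in chromatin RNA. Of all genes tested 4.48%, 4.84% and 6.51% were higher by 4-fold, in the same order. Cdkn2c, the inhibitor p18, was lower in the cytoplasm, at 1.64 RPKM at 120 min, against 8.07 RPKM at 0 min. Chek2 was lower in chromatin RNA, at 0.287 RPKM at 120 min, against 2.80 RPKM at 0 min. Of the regulators of cell cycle transcription 11 of 17 were lower by 2-fold in chromatin RNA, 8 of 19 in nucleoplasmic and 6 of 20 in cytoplasmic RNA, against 33.5%, 22.5% and 18.7% of all genes tested in the same order. E2f2, an activator of S phase genes, was the 1 gene of this list lower by 4-fold in each fraction. Of all genes tested 1.88% were so in cytoplasmic, 2.81% in nucleoplasmic and 3.91% in chromatin RNA. The cytoplasmic level of E2f2 was 0.276 RPKM at 120 min, against 4.44 RPKM at 0 min. Rbl1 (p107), a repressor subunit, had 11.7 RPKM in chromatin RNA at 120 min, against 4.20 RPKM at 0 min. Of the subunits and partners of the anaphase-promoting complex and the SCF ligases, 7 of 19 were lower by 2-fold in chromatin RNA, a share near the 33.5% of all genes tested, and 0 were higher, against 15.9%. Skp2, which marks p27 for destruction, was the 1 of these lower by 4-fold there, against 3.91% of all genes tested. It stood at 0.271 RPKM at 120 min, against 3.44 RPKM at 0 min.

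**Figure D5:**
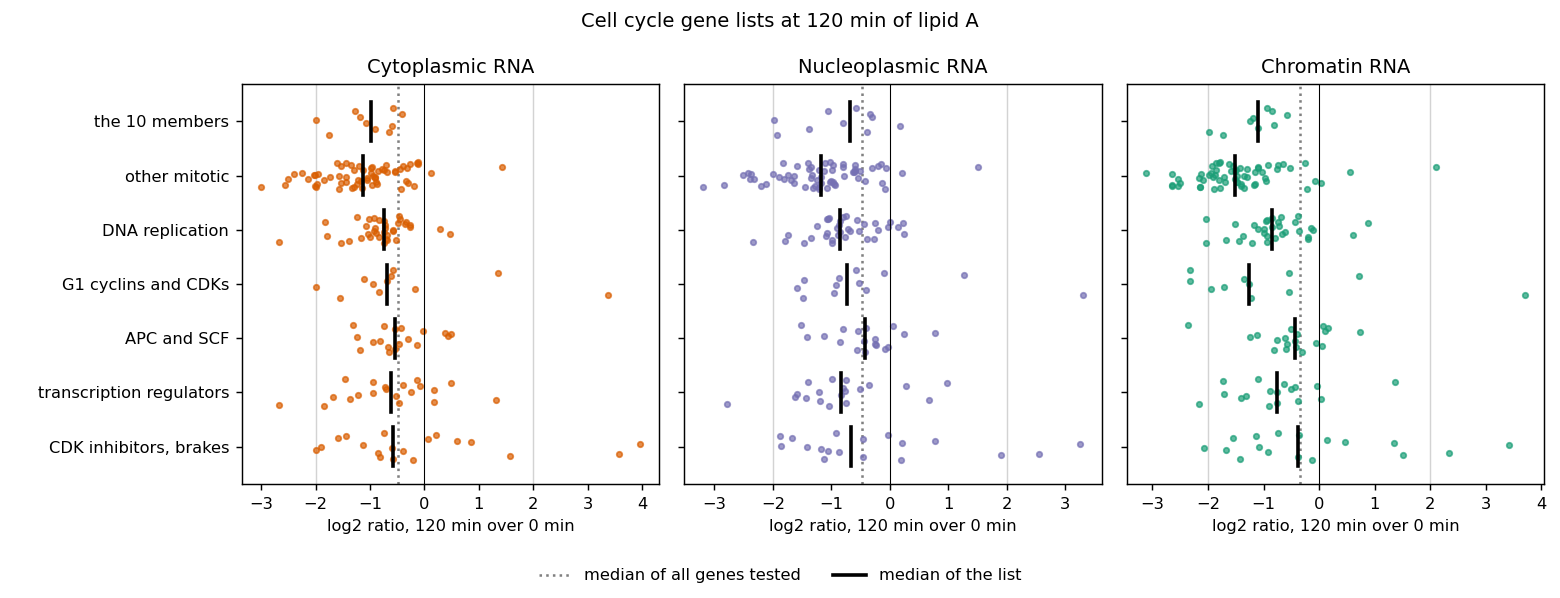
log2 ratio of RPKM + 0.5 at 120 min to 0 min for each gene of the cell cycle lists that passed 1 RPKM (points), with the median of the list (black bar) and of all genes tested (dotted line), in cytoplasmic, nucleoplasmic and chromatin RNA. The lowest list medians are those of the other mitotic genes, at -1.13, -1.18 and -1.51 from left to right.

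The 10 genes were also set against every other gene by the shape of their course. After the mean of each fraction had been subtracted, the mean course of the 10 genes was correlated with that of the 8602 other genes with a mean of at least 1 RPKM, over the 15 libraries, which share depth and composition, so the values are descriptions. The 10 genes most like them were Racgap1 (r = 0.99), Mcm3 (0.99), Ercc6l (0.98), Spag5 (0.98), Ncaph (0.98), Hnrnpu (0.98), Kif20a (0.98), Topbp1 (0.98), Snx14 (0.97) and Nek2 (0.97). Racgap1 is a partner of Kif23 in the central spindle, Mcm3 a subunit of the replicative helicase, Ncaph a subunit of condensin and Nek2 a kinase of centrosome separation. Among the 100 highest correlations 20 belonged to the list of other mitotic genes, whose median r was 0.93 beside 0.64 over all genes ranked. Within the 10, the correlation of a gene with the mean of the other 9 was 0.65 for Mki67 and 0.76 for Ccnb1, and 0.87 to 0.94 for the rest. The correlation for Mki67 was 0.91 in cytoplasmic, 0.38 in nucleoplasmic and 0.33 in chromatin RNA, and for Ccnb1 0.90 in cytoplasmic, 0.21 in nucleoplasmic and 0.88 in chromatin RNA (5 times each). The authors' own grouping of the table, in 12 numbered groups, likewise put the 10 genes in several: Cdc20 in group 5, Aurka, Bub1 and Cdk1 in group 6, Mki67 and Top2a in group 9, Ccna2, Ccnb2 and Plk1 in group 11 and Ccnb1 in group 12.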

How the data were processed

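RNA of unstimulated and lipid A-treated macrophages was sequenced, per the labels' protocols, after depletion of ribosomal RNA and strand-specific (dUTP) library construction, and the submitters' processing notes name TopHat and mm9. How reads were counted, and against which gene models, is not given in the sources used here. Exon RPKM values, named so per the file headers, and a group number per gene (other) were deposited by the authors. Another 3 columns of per-sample values that matched no sample were not used. Multiplying RPKM by 1 length per gene gave whole reads (tolerance 0.02 reads) for 99.8% of 10020 genes. Values without reads had been replaced by 0.0191 RPM, which 345 values equalled. Intervals on ratios are exact binomial intervals (95%) of counting error alone, as PCR duplicates carry no mark.

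Time changes were log2 ratios with a pseudocount of 0.5 RPKM for genes that reached 1 RPKM in any library of a fraction, with calls at 4-fold and 2-fold. Fractions were compared with limma 3.58.1 (R 4.3.3, trended prior, time as a term, all 15 libraries), which was tested on simulated data first. Its p-values set fraction means against variation between single libraries at 5 times, not between cultures, and it is not stated whether 1 plate gave all fractions of a time. Changes with time were not tested across fractions for that reason. Python 3.11.15 with SciPy 1.17.1 did the rest. Genes to name were picked by rule. They were all 10 members, the 2 highest and 2 lowest of each list in chromatin RNA at 120 min, and the 10 most alike. Up to 5 genes per list, fraction and direction past 4-fold were added. Not every gene picked was described: Atad2, Mcm10, Cdk6, Cdc23, Cul1, Mad2l2, Rbl2 and E2f5 were left out. Of these, Atad2 was lower by 4-fold in chromatin RNA. Cdc25b, named as 1 of 7 shared genes, fell outside the rule. The members and lists were chosen with earlier results of these data known. Alternatives were the pseudocount, the filter, rescaling, the time term, the fractions in the fit and leaving out times.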

Additional observations from a re-analysis of the deposited data

Results flagged for a closer look

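At some times a gene was above its 0 min level in 1 fraction and below it in another, with counting intervals on both sides excluding no change and the same signs after rescaling to the median of all genes. With 1 library per time the difference itself was not tested. The values are before rescaling and thus include shifts of the median of all genes. At 60 min that median was 0.39 in cytoplasmic, -0.18 in nucleoplasmic and -0.47 in chromatin RNA. Each value is the difference of the log2 ratios to 0 min in the 2 fractions named. At 60 min it was 2.43 for Bub1 between cytoplasmic and chromatin RNA (1.18 and -1.25) and 1.90 between nucleoplasmic and chromatin RNA (0.65 and -1.25). Ccnb2 differed by 1.98 between cytoplasmic and chromatin RNA and by 1.26 between cytoplasmic and nucleoplasmic RNA, and Ccna2 by 1.75 and 1.11 in the same order. Top2a differed by 1.36 between cytoplasmic and chromatin RNA and by 0.81 between nucleoplasmic and chromatin RNA, and Cdk1 by 0.96 and 0.91 in the same order, although the rescaled chromatin value of Cdk1 was only -0.02. Cdc20 differed by 0.93 between cytoplasmic and nucleoplasmic RNA. Rescaled, the cytoplasmic and chromatin changes were 0.79 and -0.78 for Bub1, 0.40 and -0.72 for Ccnb2 and 0.29 and -0.60 for Ccna2. For Top2a they were 0.26 and -0.24, and for Cdk1 0.09 and -0.02. Rescaled Cdc20 was at 0.15 in cytoplasmic and -0.21 in nucleoplasmic RNA.

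At 30 min Bub1 differed by 1.12 between cytoplasmic and chromatin RNA, Ccna2 by 0.75 between cytoplasmic and chromatin RNA and by 0.99 between cytoplasmic and nucleoplasmic RNA, and Mki67 by 0.86 between cytoplasmic and nucleoplasmic RNA and by 0.56 between chromatin and nucleoplasmic RNA. The median of all genes at 30 min was 0.14 in cytoplasmic, -0.17 in nucleoplasmic and -0.40 in chromatin RNA. Rescaled, the cytoplasmic and chromatin changes at 30 min were 0.20 and -0.38 for Bub1 and 0.07 and -0.13 for Ccna2. Rescaled Ccna2 was at -0.62 in nucleoplasmic RNA. Rescaled Mki67 was at 0.20 in cytoplasmic, -0.36 in nucleoplasmic and 0.43 in chromatin RNA. At 15 min Mki67 differed by 0.80 between cytoplasmic and chromatin RNA. It differed by 0.68 between cytoplasmic and nucleoplasmic RNA, where its cytoplasmic change was 0.06.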

How the results depend on the processing

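No called change at 120 min and no called difference between fractions changed sign, but some uncalled ones did. With libraries rescaled to equal medians, cytoplasmic over chromatin RNA was -0.57 for Mki67 and -0.26 for Ccnb1, and nucleoplasmic over chromatin RNA was -0.42 for Ccnb1. Leaving out each time in turn, cytoplasmic over nucleoplasmic RNA ranged from -0.0042 to 0.24 for Ccnb1 and from -0.066 to 0.32 for Ccnb2, the lowest of each being without 60 min. Rescaled changes at 120 min were positive for nucleoplasmic Mki67 (0.14), Cdk1 (0.16) and Bub1 (0.09) and for cytoplasmic Mki67 (0.07). The cause was not tested. Counts of genes lower by 4-fold rested on the pseudocount: with 0.1 RPKM they were 1, 2 and 2 for the 10 mitotic genes in cytoplasmic, nucleoplasmic and chromatin RNA, and 16, 14 and 27 for the other mitotic genes, for which 1 RPKM gave 3, 6 and 7. With 0.1 RPKM 1 of the 10 genes was also higher by 2-fold in nucleoplasmic RNA. Rescaled to the median ratio, 2 of the 10 genes were lower by 2-fold in each fraction and 0 higher in cytoplasmic RNA. Of the other mitotic genes 3, 3 and 7 were lower by 4-fold and 19, 18 and 40 by 2-fold. Of all genes tested 695 of 9239, 886 of 9317 and 1409 of 8881 were lower by 2-fold on that scale, in the same order. By 4-fold they were 70, 109 and 161. Without the 120 min library 0 of the 10 genes were lower by 2-fold in cytoplasmic or nucleoplasmic RNA, and of the other mitotic genes 0 were lower by 4-fold in any fraction and 1, 1 and 32 by 2-fold. Between fractions, rescaled libraries gave 3 genes higher in cytoplasmic and 2 in nucleoplasmic over chromatin RNA, with no share of all genes given for that setting. Leaving out the libraries of each time in turn gave 7 to 8, 8 to 9 and 0 to 1 of 10 genes higher in cytoplasmic over chromatin, nucleoplasmic over chromatin and cytoplasmic over nucleoplasmic RNA. Of the single-gene differences between fractions 307 kept their direction and side of the threshold, 14 were weaker, 4 stronger and 5 of the other sign, and of the single-gene changes at 120 min 90 stayed within counting error and 26 did not. Fractions were matched by time, which was a term of the fit, and without that term the counts of the 10 genes called were the same. A block by replicate number could not be fitted, as each fraction and time had 1 library. Ccnb1 rested on at most 101 reads in any library.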
